A study of Caenorhabditis elegans with 48 samples.

Results

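Mitochondrial ribosomal proteins build the ribosome that works inside mitochondria, and their mRNAs were followed in whole starved Caenorhabditis elegans larvae. Members were chosen by name alone, as every gene whose current symbol is mrpl (large subunit) or mrps (small subunit) followed by a number. Of the 44968 genes in the count tables, 66 were members, 41 of the large and 25 of the small subunit. The current annotation holds 67 such symbols, and mrpl-42 was not analysed here because its identifier had no row in the count tables. A further 4 symbols that carry a letter were not taken by the rule. The rule itself used no values, though it was set with earlier results of these data known.

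All 48 libraries came from the wild-type strain N2, held in S-basal without any food since before hatching, which keeps hatched larvae in L1 arrest, a halt of development in the first stage. The groups were 12 time points with 4 replicates each, numbered 1, 5, 6 and 8. The earliest, -2 h, held embryos before the nominal hatch at 0 h, then came 2, 4, 6, 9 and 12 h, followed by 24 and 48 h, and the late arrest was sampled at 96, 192 and 288 h. There was no fed group, so starvation, hatching and age cannot be told apart. Per the study's methods, each replicate but 1 was sampled over time from a single culture, hatching was not complete at 0 h, and most larvae at 288 h no longer recovered on food, so dying animals contributed to that group. In poly(A) RNA of whole animals, fewer cells of a type and less RNA per cell cannot be told apart. Libraries held 10164115 to 15962842 gene counts (median 12449156.5), of which 12520 to 45129 fell on the members. Ribosomal RNA took 49.5% of the gene counts at -2 h in replicate 6 and 29.2% at 24 h in replicate 8, against at most 9.89% in the other libraries, and the sums at -2 h and the counts of calls at -2 and 24 h are also given without these 2 libraries. All 34 markers checked for germline, muscle, intestine, neurons and epidermis passed the filter on low values. Levels are CPM, the counts scaled to library size, after scaling with TMM factors, which makes each value relative to the other mRNAs of the same library, and amounts per animal were not measured in these files.

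The mitochondrial ribosome translates only the few proteins encoded by mitochondrial DNA, which are core subunits of the respiratory chain and the ATP synthase. Its own proteins are all encoded in the nucleus, made on cytosolic ribosomes and imported. Many descend from the bacterial ancestor and keep bacterial numbers, while others were added to the mitochondrial ribosome in eukaryotes. In C. elegans, lowering members such as mrps-5 is known to lengthen lifespan and to induce the mitochondrial unfolded protein response. In what follows, roles of single proteins are those of the bacterial or mammalian counterpart unless C. elegans is named.

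Of the 66 members, 64 exceeded 1 CPM in at least 4 libraries and were tested, 40 of the large and 24 of the small subunit. The exceptions were mrpl-12, with 7 counts in all 48 libraries together, and mrps-16, with 3, so that no time course could be read for either. mrpl-12 is the counterpart of the bacterial stalk protein L7/L12 and mrps-16 of bacterial S16. Why their rows were nearly empty was not tested. The tested members had 32 to 7221 counts per library. Members named here beyond those taken by a rule of size or role, such as these 2, were picked after their values were seen.

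The members differed widely in level. Per kilobase of exon, the median over all libraries was 33.9 CPM for the 40 large-subunit members and 26.8 CPM for the 24 small-subunit members. The highest of all was mrps-11 (W04D2.5), the uS11 protein of the platform, at 336 CPM per kilobase. It was followed in the small subunit by mrps-17 (132), the uS17 protein, and mrps-5 (125), the uS5 protein of the decoding side. In the large subunit the highest per kilobase were mrpl-55 (134), the bL31 counterpart, mrpl-44 (131), an RNase III-like protein, and mrpl-41 (107). The lowest tested members per kilobase were mrpl-24 (5.14), mrpl-45 (9.08) and mrpl-20 (15.1) in the large subunit, and mrps-2 (6.51), mrps-31 (7.25) and mrps-28 (11.2) in the small subunit. Exon lengths came from a newer annotation than the one behind the counts. In that newer annotation the exons of mrpl-44 (F02A9.4) overlap those of mccc-2, a subunit of methylcrotonyl-CoA carboxylase that has no row of its own in the count tables, so reads of both genes may be in the mrpl-44 values.

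Across the 12 time points, 60 of the 64 members changed by the likelihood ratio test in edgeR with 0.05 as the threshold on the FDR, the Benjamini-Hochberg adjusted p, 36 of 40 in the large and 24 of 24 in the small subunit. This test called 84.9% of all 16987 genes tested. The 4 members that did not pass it were mrpl-51, mrpl-50, mrpl-23 and mrpl-21, all of the large subunit. By the quasi-likelihood F test over all time points, 36 of 40 and 23 of 24 passed, and mrps-2 did not (FDR 0.063, against 0.043 by the likelihood ratio test). The share of all genes called by that F test is not given here. The level of mrpl-51 stayed between 22.9 and 25.6 CPM in the means of all time points (FDR 0.992), and its highest mean was 1.12 times its lowest. Over the large subunit, the highest time point mean was 1.12 to 6.19 times the lowest, with a median over members of 2.13. Over the small subunit it was 1.41 times or more, with a median of 2.36.

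The members did not follow a shared course. The highest mean fell at 2 h for 19 large-subunit and 7 small-subunit members, and at 24 h or later for 16 and 8. The lowest mean fell at 288 h for 23 large-subunit and 10 small-subunit members, and at -2 h for 11 and 5. mrps-5 was the only one of the 64 whose highest mean was at 288 h. The heat map of mean levels shows members that climbed for days beside others that sank within hours, in both subunits.

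**Figure D1:**
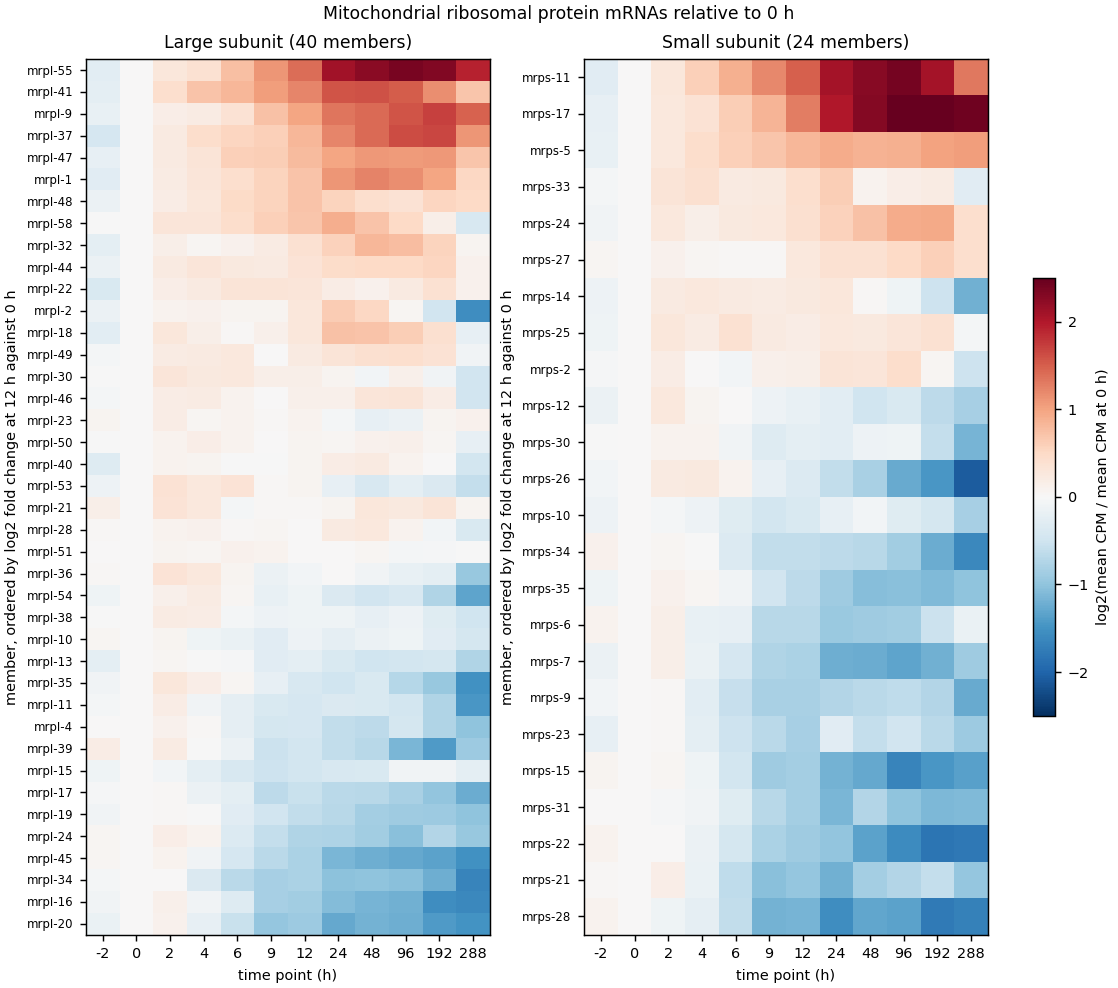
Each row is 1 of the 64 tested members and each column 1 of the 12 time points, and the colour is the log2 ratio of the mean CPM (n = 4 libraries) to the mean at 0 h, red for higher and blue for lower. Rows are ordered by the log2 fold change at 12 h against 0 h, from mrpl-55 and mrps-11 at the top to mrpl-20 and mrps-28 at the bottom.

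Summed over each subunit, the rising members outweighed the others for much of the series. The sum of the 41 large-subunit members was 1227 ± 118.5 CPM (SD, n = 4) at -2 h, 1562 ± 87.1 at 12 h, 1815 ± 171 at 96 h and 1344 ± 68.9 at 288 h. The sum of the 25 small-subunit members was 821 ± 82.3 CPM at -2 h, 1066 ± 87.2 at 12 h, 1362 ± 122 at 96 h and 993 ± 46.5 at 288 h. The ratio of the large to the small sum went from 1.50 ± 0.0137 at -2 h to 1.33 ± 0.0274 at 96 h. This ratio rests heavily on mrps-11, part of the small sum, which went from 77.4 ± 17.8 to 492 ± 42.9 CPM over that span. Without the library rich in ribosomal RNA (n = 3), the values at -2 h were 1286 ± 24.4 CPM for the large sum, 861 ± 15.1 CPM for the small sum and 1.49 ± 0.0148 for the ratio. Without mrpl-44, the large sum was 1056 ± 98.8 CPM at -2 h and 1547 ± 152 at 96 h. Strong risers weighed on this sum too. From -2 to 96 h mrpl-37 went from 55.15 ± 9.29 to 229.5 ± 16.4 CPM, and mrpl-55 from 18.5 ± 3.28 to 114.5 ± 20.6 CPM. Of the 40 tested large-subunit members, 22 had their highest mean at 4 h or before and 16 at 24 h or later. Both genes were picked after their values were seen, and the large sum was not computed without them.

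A few genes also carried the small-subunit sum. mrps-11 alone made up 9.34 ± 1.39% of it at -2 h (10.02 ± 0.336% without replicate 6), 24.8 ± 1.38% at 12 h and 36.2 ± 1.58% at 96 h. With mrps-11, mrps-5 and mrps-17 left out, the other 22 members summed to 618 ± 50.5 CPM at -2 h (643 ± 13.02 without replicate 6), 694 ± 90.1 at 2 h, 532 ± 42.8 at 12 h, 498 ± 47.2 at 96 h and 376 ± 20.1 at 288 h. Between 2 and 96 h the sum of all 25 thus went up while the sum of these 22 went down. From -2 to 96 h the large sum went up and the sum of these 22 went down. A ratio of the large sum to these 22 alone therefore goes up, not down. mrps-11, mrps-5 and mrps-17 were picked after their values were seen, and the sums carry no test.

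**Figure D2:**
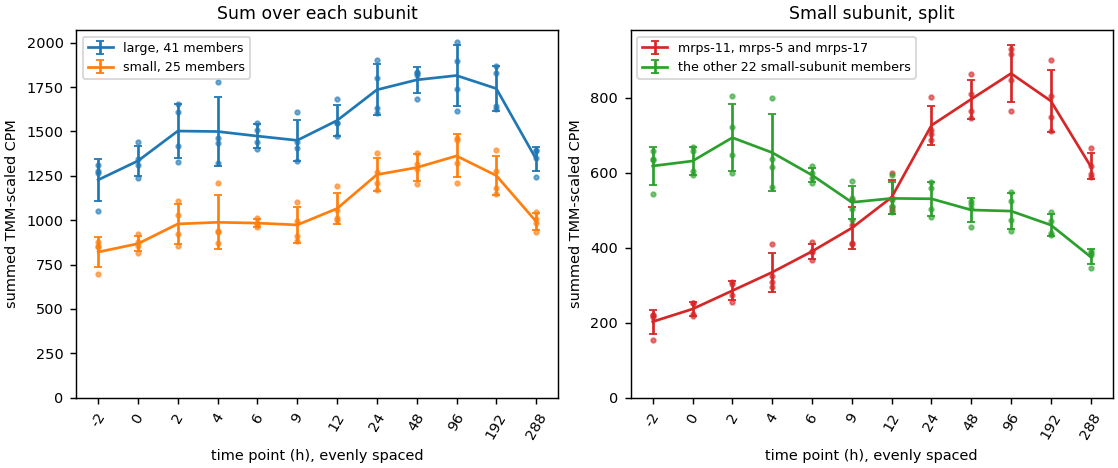
Summed TMM-scaled CPM at the 12 time points (evenly spaced on the x axis, in h), with points for single libraries and lines for the mean ± SD of 4 libraries. The left panel shows the large and small subunits, and the right panel shows mrps-11, mrps-5 and mrps-17 rising past the other 22 small-subunit members between 9 and 24 h.

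Around the nominal hatch few members moved. Between -2 and 0 h, 3 of the 40 large-subunit members rose, none fell, and none of the 24 small-subunit members passed, by the quasi-likelihood F test in edgeR. These 3 are 4.69% of the members, while the same test called 23.8% of all genes, 11.5% higher and 12.3% lower. The median log2 fold change was 0.08 for the large and 0.07 for the small subunit, against 0.03 for all genes tested. At an unadjusted p under 0.05, 1 small-subunit member was higher and no member of either subunit was lower, and DESeq2 called 0 in the small subunit and 0 falls in the large. In the same step 24 of 63 cytosolic ribosomal protein genes rose, with a median of 0.31.

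The 3 that rose were mrpl-37, a protein specific to mitochondrial ribosomes, mrpl-22, the uL22 protein that lines the exit tunnel, and mrpl-1, the uL1 protein of the L1 stalk through which spent tRNA leaves. mrpl-37 stood at 59.1, 59.5, 41.3 and 60.7 CPM at -2 h and at 70.1, 77.9, 65.2 and 82.7 CPM at 0 h, in replicates 1, 5, 6 and 8. The groups did not overlap, and the low value at -2 h was the library rich in ribosomal RNA. Its log2 fold change was 0.42 ± 0.10 (SE; edgeR FDR 0.0012), with 4 of 4 replicates rising. mrpl-22 (0.37 ± 0.12, FDR 0.016) and mrpl-1 (0.29 ± 0.10, FDR 0.032) rose less. mrps-11 was 77.4 ± 17.8 CPM at -2 h and 94.3 ± 11.03 CPM at 0 h (0.28 ± 0.13, FDR 0.12). mrps-5 went from 103 ± 12.3 to 116 ± 9.43 CPM (FDR 0.20). The count of calls was 1 without replicate 6, 1 without replicate 8, 1 without the 2 libraries rich in ribosomal RNA, and 0 when the 2 time points were fitted alone. It was 5 with upper-quartile factors, 5 with a mean CPM of at least 10 as the filter, and 6 with the replicate number as a block, which added mrpl-18 (edgeR FDR 0.043), mrpl-40 (0.018) and mrps-11 (0.023). Of the 3 calls, 0 were kept under each of the 13 other analyses.

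Among tissue markers, 4 of 6 for epidermis fell in this step, with a median log2 fold change of -1.52 and summed levels of 497 to 741 CPM at -2 h and 532 to 628 CPM at 0 h. Of the others, 3 of 6 for muscle, 2 of 6 for intestine and 1 of 6 for neurons rose. Their part in the members' changes was not tested.

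From 0 to 12 h, the first hours of arrest, the members split in both directions. In the large subunit 13 of 40 rose and 12 fell, and in the small subunit 5 of 24 rose and 14 fell. The 44 calls are 68.8% of the members. Over all genes the quasi-likelihood F test in edgeR called 45.4%, 22.2% higher and 23.3% lower. The median log2 fold change was 0.05 in the large and -0.36 in the small subunit, against -0.02 over all genes. Single members ran from -1.15 to 1.49.

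The largest rise was that of mrps-11. It stood at 96.0, 105, 78.8 and 97.9 CPM at 0 h and at 260, 270, 231 and 296 CPM at 12 h in replicates 1, 5, 6 and 8. Every library at 12 h was above every library at 0 h. The log2 fold change was 1.49 ± 0.13 (SE; edgeR FDR 5.87e-13). Its exons overlap those of inx-11 on the opposite strand over 4.06% of their length, and the strand setting of the counting was not given in the sources used here.

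mrpl-55 followed, at 19.4, 22.5, 19.8 and 26.7 CPM at 0 h and 51.8, 51.5, 63.2 and 68.0 CPM at 12 h (1.40 ± 0.19, edgeR FDR 3.35e-08). mrps-17 was at 22.95, 25.97, 26.1 and 28.7 CPM at 0 h and at 53.03, 58.1, 70.9 and 71.3 CPM at 12 h (1.29 ± 0.14, FDR 7.65e-11). Neither gene's groups overlapped. mrpl-41, a protein specific to mitochondrial ribosomes, rose from 33.8 ± 4.73 to 79.2 ± 9.99 CPM, and mrpl-9, the bL9 counterpart, from 35.3 ± 2.19 to 69.9 ± 8.49 CPM. mrpl-37 rose from 74.0 ± 7.79 to 132 ± 10.1 CPM. mrps-5, whose lowering extends lifespan in C. elegans, was at 104, 122, 114 and 125 CPM at 0 h and at 194, 203, 198 and 231 CPM at 12 h. Its groups did not overlap either, and its log2 fold change was 0.83 ± 0.10 (FDR 1.10e-09).

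Smaller rises passed for mrpl-47 (log2 fold change 0.79), the uL29 counterpart near the exit of the tunnel, mrpl-1 (0.72), mrpl-48 (0.71) and mrpl-58 (0.70), the counterpart of the rescue peptidyl-tRNA hydrolase ICT1. Of the exon length of mrpl-1, 18.2% is shared with emc-6 on the same strand, so its value is uncertain. mrps-33 (0.43, edgeR FDR 0.035), mrps-24 (0.39, FDR 0.019), the uS3 counterpart at the mRNA entry, and mrpl-44 (0.34, FDR 0.0013) also rose. mrpl-2, the uL2 protein next to the peptidyl transferase centre, went from 30.9 ± 4.27 to 37.8 ± 3.78 CPM, with overlapping groups (0.29 ± 0.12, FDR 0.043).

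The deepest fall was that of mrps-28, a relative of bacterial S1. It was at 9.76, 11.5, 13.6 and 13.4 CPM at 0 h and at 4.25, 3.66, 8.09 and 5.67 CPM at 12 h in replicates 1, 5, 6 and 8, without overlap. The log2 change was -1.15 ± 0.18 (SE; edgeR FDR 6.49e-07). Also in the small subunit, mrps-21 fell by 0.95 on the log2 scale, mrps-22 by 0.88 and mrps-31 by 0.85, the last 2 being specific to mitochondria. mrps-15, mrps-23, mrps-9, mrps-7, mrps-6, mrps-35 and mrps-34 fell by 0.84 to 0.62. Of the exon length of mrps-35, 11.1% lies opposite sws-1, and of that of mrpl-34, described next, 11.3% lies opposite aha-1, so both values are uncertain without the strand setting.

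In the large subunit mrpl-20, the bL20 protein, fell by 0.91 on the log2 scale, from 15.7 ± 1.34 to 8.31 ± 1.03 CPM. mrpl-16, the uL16 protein at the tRNA sites, fell from 32.5 ± 0.941 to 17.9 ± 1.82 CPM, mrpl-34 fell by 0.80 and mrpl-24, the uL24 protein of the tunnel exit, fell by 0.75. mrpl-45, which in mammals ties the ribosome to the inner membrane, was at 21.3, 30.9, 32.8 and 31.3 CPM at 0 h and at 16.8, 17.5, 16.7 and 16.3 CPM at 12 h. The groups were apart and the log2 change was -0.79 ± 0.15 (edgeR FDR 2.05e-05). mrpl-11, the uL11 protein of the stalk base, fell from 52.0 ± 6.18 to 39.02 ± 3.20 CPM (FDR 0.0011). mrps-30, which sits in the large subunit of mammalian mitochondrial ribosomes, fell from 70.1 ± 1.85 to 58.9 ± 4.57 CPM (FDR 0.028). mrps-12, the uS12 protein of the decoding centre, was at 27.02 ± 4.83 and 23.9 ± 3.50 CPM (FDR 0.33).

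The spread among the members can be set beside that of other lists in the same comparison. The SD of the log2 fold changes was 0.58 over the large-subunit and 0.73 over the small-subunit members, 0.12 over the 63 cytosolic ribosomal protein genes and 1.03 over all genes. Of the cytosolic genes, 52 of 63 rose and none fell (0 lower at an unadjusted p under 0.05 and 0 by DESeq2), with a median of 0.48. The 61 nuclear genes of the respiratory chain and ATP synthase split, 15 rising and 16 falling, with an SD of 0.47 and a median of 0.06. The difference in spread between lists was not tested.

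Of the 44 members called at 12 h, 32 kept the call under each of the 13 other analyses in which they were tested, 11 of them rising and 21 falling. Among those that did not were mrpl-2, mrpl-44, mrps-30, mrps-24 and mrps-33. Without scaling factors the median of all genes moved to -0.14, the large-subunit median to -0.07, and the split became 11 rising and 26 falling. In the paired fit mrps-27 also rose (0.26, edgeR FDR 0.016 in place of 0.059).

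Tissue markers also moved between 0 and 12 h. Of 6 epidermis markers 4 fell (median -0.82), of 6 intestine markers 3 rose and 3 fell, of 6 muscle markers 1 rose and 2 fell, of 6 neuron markers 2 rose and 2 fell, and of 10 germline markers 3 fell. The summed level of the neuron markers was 1224 to 1547 CPM at 0 h and 1976 to 2326 CPM at 12 h, and that of the epidermis markers was 532 to 628 and 581 to 706 CPM. Their part in the members' changes was not tested.

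**Figure D3:**
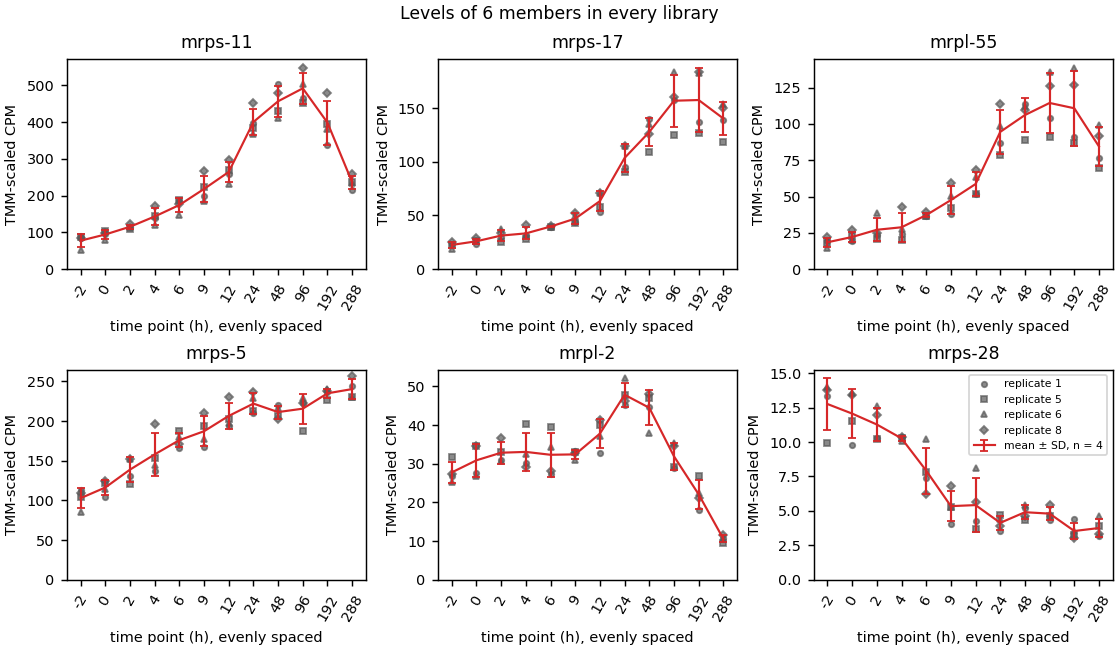
TMM-scaled CPM of 6 members at the 12 time points (evenly spaced on the x axis, in h), with 1 symbol per replicate and the mean ± SD of 4 libraries in red. mrps-11 climbed to 492 CPM at 96 h, mrps-17 and mrpl-55 also climbed for days, mrps-5 was highest at 288 h, mrpl-2 rose until 24 h and then sank to 10.6 CPM, and mrps-28 sank within the first 9 h.

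From 12 to 24 h only rises passed, 5 of 40 in the large and 2 of 24 in the small subunit. The 7 calls are 10.9% of the members, while the quasi-likelihood F test in edgeR called 9.54% of all genes, 4.26% higher and 5.29% lower. The medians were -0.0099 in the large and 0.0087 in the small subunit. At an unadjusted p under 0.05, 2 large-subunit and 4 small-subunit members were lower, and DESeq2 called 0 falls in either subunit.

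mrps-17 reached 94.8, 90.3, 114 and 114 CPM at 24 h in replicates 1, 5, 6 and 8 (0.71 ± 0.13 against 12 h, edgeR FDR 0.00022). mrps-11 reached 399, 384, 369 and 451 CPM (0.60 ± 0.13, FDR 0.0011). For both, every library at 24 h was above every library at 12 h. The other 5 calls were in the large subunit, and the groups of mrpl-9 overlapped. mrpl-55 rose from 58.6 ± 8.30 to 94.6 ± 15.3 CPM, mrpl-18, the uL18 protein, from 23.9 ± 1.16 to 32.6 ± 3.05, mrpl-37 to 173 ± 11.7, mrpl-1 to 114 ± 11.6 and mrpl-9 to 89.4 ± 7.70 CPM.

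mrps-5 was at 222 ± 12.8 CPM at 24 h (FDR 0.59 against 12 h). The lowest log2 fold changes were those of mrps-7 (-0.42, FDR 0.13), mrps-28 (-0.39, FDR 0.23) and mrpl-20 (-0.37, FDR 0.16). In the paired fit with the replicate number as a block, mrpl-2 (0.34, FDR 0.018 in place of 0.061), mrpl-41 (0.33, FDR 0.032 in place of 0.12) and mrps-23 (0.55, FDR 0.026 in place of 0.055) passed in edgeR too. The rises shrink without scaling factors, where 1 member rose and 5 fell, with all genes at a median of -0.21 and the large-subunit members at -0.24. Without replicate 8 the count was 4, without the 2 libraries rich in ribosomal RNA 4, and without the filter on low values 3. Of the 7 calls, 1 was kept under each of the 13 other analyses in which the member was tested.

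Over the long arrest from 24 to 192 h, 3 of the 40 large-subunit members rose and 9 fell, and 4 of the 24 small-subunit members rose and 6 fell. The 22 calls are 34.4% of the members. Over all genes the quasi-likelihood F test in edgeR called 39.7%, 19.4% higher and 20.3% lower. The medians were -0.13 and -0.22, against -0.05 over all genes.

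mrpl-2 fell the most. It was at 45.2, 47.7, 52.2 and 46.3 CPM at 24 h and at 18, 26.8, 22.5 and 21.01 CPM at 192 h in replicates 1, 5, 6 and 8. The groups were far apart and the log2 change was -1.12 ± 0.12 (SE; edgeR FDR 2.6e-10). In the large subunit mrpl-39 (-0.79), mrpl-58 (-0.76), mrpl-16 (-0.47) and mrpl-11 (-0.39) also fell. mrps-26 fell from 32.2, 29.3, 37.7 and 29.6 CPM to 13.5, 20.0, 19.2 and 19.4 CPM, which did not overlap (-0.84 ± 0.13, FDR 1.1e-06). mrps-22 (-0.85), mrps-14, the uS14 protein (-0.80), mrps-34 (-0.60) and mrps-30 (-0.34) fell as well, and mrps-12 fell from 22.4 ± 2.18 to 17.2 ± 2.59 CPM (FDR 0.032).

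Against these, mrps-17 kept rising, to 137, 127, 182 and 183 CPM at 192 h, all above the 24 h libraries (0.61 ± 0.13, edgeR FDR 0.00018). mrpl-37 rose to 218, 241, 243 and 241 CPM (0.45 ± 0.10, FDR 0.00015), again without overlap. mrpl-9 rose to 116 ± 14.95 CPM and mrpl-15, the uL15 protein, from 40.8 ± 2.87 to 50.3 ± 3.42 CPM. mrps-24 (0.37, FDR 0.028), mrps-6 (0.39, FDR 0.047) and mrps-21 (0.61, FDR 0.026) passed as well. mrps-5 was at 236.1, 226, 240.0 and 238 CPM (FDR 0.55), overlapping its 24 h values, mrpl-44 at 273 ± 7.27 (FDR 0.57) and mrpl-1 at 105 ± 6.90 (FDR 0.40). mrps-11 had its highest mean in between, at 492 ± 42.9 CPM at 96 h, and was back at 399 ± 59.9 CPM at 192 h.

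Of the 18 members that had risen by 12 h, 4 rose again here (mrpl-37, mrpl-9, mrps-17 and mrps-24) and 4 fell (mrpl-2, mrpl-18, mrpl-41 and mrpl-58). Of the 26 that had fallen by 12 h, 8 fell again and 3 rose (mrpl-15, mrps-21 and mrps-6). Over all genes tested, 39.9% of those that had risen by 12 h rose again and 19.6% fell, and of those that had fallen 33.3% fell again and 9.82% rose. The 2 comparisons share no library, and no test was made.

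Of the 22 calls, 9 were kept under each of the 13 other analyses in which the member was tested, all of them falls except mrps-17. The count was 20 without the 2 libraries rich in ribosomal RNA (8 rising and 12 falling), 14 without replicate 1 and 14 without the filter, and without scaling factors 1 member rose and 17 fell. With the replicate number as a block mrps-33 also fell (-0.41, edgeR FDR 0.0044 in place of 0.053). Tissue markers moved in this interval: 6 of 6 for muscle fell, with a summed level of 15110 ± 692 CPM at 24 h and 3578 ± 993 at 192 h. Of 6 intestine markers 5 fell, and 3 of 6 neuron markers rose, from a sum of 2566 ± 56.5 to 4093 ± 240 CPM. Of 6 epidermis markers 1 rose and 2 fell, with a sum of 754 ± 69.0 CPM at 24 h and 1337 ± 139 at 192 h. Of 10 germline markers 2 fell, with sums of 129 ± 22.3 and 118 ± 25.3 CPM. Their part in the members' changes was not tested.

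Between 192 and 288 h, 25 of the 64 members fell, 1 rose and 38 did not pass. In the large subunit 17 of 40 fell and 1 rose, and in the small subunit 8 of 24 fell and none rose. The 26 calls are 40.6% of the members. Over all genes the quasi-likelihood F test in edgeR called 24.7%, 7.39% higher and 17.4% lower. The medians were -0.31 in the large and -0.29 in the small subunit, against -0.0037 over all genes. In the small subunit 1 member was higher at an unadjusted p under 0.05, and DESeq2 also called 1.

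mrpl-2 again fell the most, to 10.8, 9.48, 10.5 and 11.6 CPM in replicates 1, 5, 6 and 8, below every library at 192 h (-1.06 ± 0.13, edgeR FDR 1.04e-08). mrps-11 was at 337, 396, 381 and 481 CPM at 192 h and at 215, 238, 234 and 259 CPM at 288 h, also without overlap (-0.75 ± 0.13, FDR 1.07e-05). mrpl-11 fell by 0.70 on the log2 scale, mrpl-36, the bL36 counterpart, by 0.70 and mrpl-46 by 0.65.

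mrps-14 fell by 0.69, mrps-26 by 0.62 and mrps-30 by 0.55. mrpl-37 fell to 154, 162, 160.4 and 160.3 CPM, clear of its 192 h values. mrpl-1 (-0.48) and mrpl-44 (-0.42) fell too. mrps-2, the uS2 protein, was at 5.83 ± 0.895 and 3.91 ± 0.786 CPM (FDR 0.086, and 0.022 in the paired fit in edgeR).

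Of the 39 members not called down, those named here include the highest log2 fold changes. mrpl-39, a protein specific to mitochondria, was at 10.5, 7.64, 8.84 and 7.13 CPM at 192 h and at 14.2, 10.6, 12.3 and 11.5 CPM at 288 h (0.50 ± 0.16, edgeR FDR 0.015). Its groups did not overlap, and the gene was the only member called up. mrps-6, the bS6 counterpart, went from 18.2 ± 3.13 to 23.6 ± 4.91 CPM (0.38 ± 0.15, FDR 0.065, and 0.021 in the paired fit), and mrps-7, the uS7 protein of the head, from 8.17 ± 1.39 to 10.2 ± 2.76 CPM (FDR 0.18). mrps-5 was at 244, 231, 231 and 256 CPM (FDR 0.85), and its mean was the highest of its 12 time points. mrpl-51 (FDR 0.91), mrpl-23 (0.84), mrpl-16 (0.85), mrpl-24 (0.49) and mrps-12 (0.43) did not pass in edgeR.

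Of the 18 members that had risen by 12 h, 12 fell in this last step, and of the 26 that had fallen by 12 h, 5 fell. Over all genes tested these shares were 34.4% (members 66.7%) and 18.1% (members 19.2%), and no test of the difference was made. The 6 early risers that did not fall by the test were mrpl-9, mrpl-22, mrpl-48, mrpl-55, mrps-5 and mrps-17. In the paired fit 35 members were called, 33 falling and 2 rising, and mrpl-55 (edgeR FDR 0.018), mrpl-9 (0.024) and mrpl-22 (0.031) were then among those that fell. The tallies became 15 of 19 early risers and 7 of 26 early fallers, against 38.1% and 20.8% over all genes. The block thus raised the shares over all genes as well, from 34.4% and 18.1%. The share of all genes called in the paired fit at this step is not given here.

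Without scaling factors 3 members fell and 3 rose, with all genes at a median of 0.21 and the large-subunit members at -0.09. With upper-quartile factors 16 fell and 3 rose, with medians of 0.13 and -0.18. Only mrpl-2, mrpl-11 and mrps-11 kept the call under each of the 13 other analyses, and without replicate 6 the count was 17. In the same step 6 of 6 muscle markers fell, to a sum of 764 ± 128 CPM, 3 of 6 intestine markers fell, and no neuron, epidermis or germline marker passed the test in edgeR or DESeq2 (2 neuron markers and 0 of the others at an unadjusted p under 0.05). Their part in the members' falls was not tested.

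The partners of the mitochondrial ribosome can be set beside it. Of the 12 protein genes of mitochondrial DNA, the products of this ribosome, 3 were listed at 0 in every library and 8 passed the filter and were tested. None passed between -2 and 0 h (0 at an unadjusted p under 0.05 and 0 by DESeq2), 5 fell by 12 h, 1 fell from 12 to 24 h, 8 of 8 fell from 24 to 192 h (median -0.97) and 7 of 8 fell from 192 to 288 h (median -0.81). Their summed level went from 12350 ± 880 CPM at -2 h to 4380 ± 646 at 192 h and 2445 ± 410 at 288 h, in libraries selected for poly(A). Over the same span the large-subunit sum went from 1227 to 1742 and then 1344 CPM, and the small-subunit sum from 821 to 1252 and then 993 CPM. A few strong risers weighed on both sums. Without mrps-11, mrps-5 and mrps-17, the other 22 small-subunit members went from 618 to 460.5 and then 376 CPM, down like the mitochondrial DNA genes.

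The nuclear genes of the respiratory chain and ATP synthase, which assemble with those products, fell at 39 of 61 from 24 to 192 h, with 2 rising and a median of -0.57. From 192 to 288 h, 51 of 61 fell, with a median of -0.64. The cytosolic ribosomal protein genes showed 1 rise in 63 from 24 to 192 h and 56 falls from 192 to 288 h, with a median of -0.64. The members' medians lay nearer to 0 than those of these lists in the last step. They were not alone in this. The medians of the mitochondrial tRNA synthetases (-0.21) and elongation factors (-0.28), described below, lay nearer to 0 than those of the members. Whether the lists differ was not tested.

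**Figure D4:**
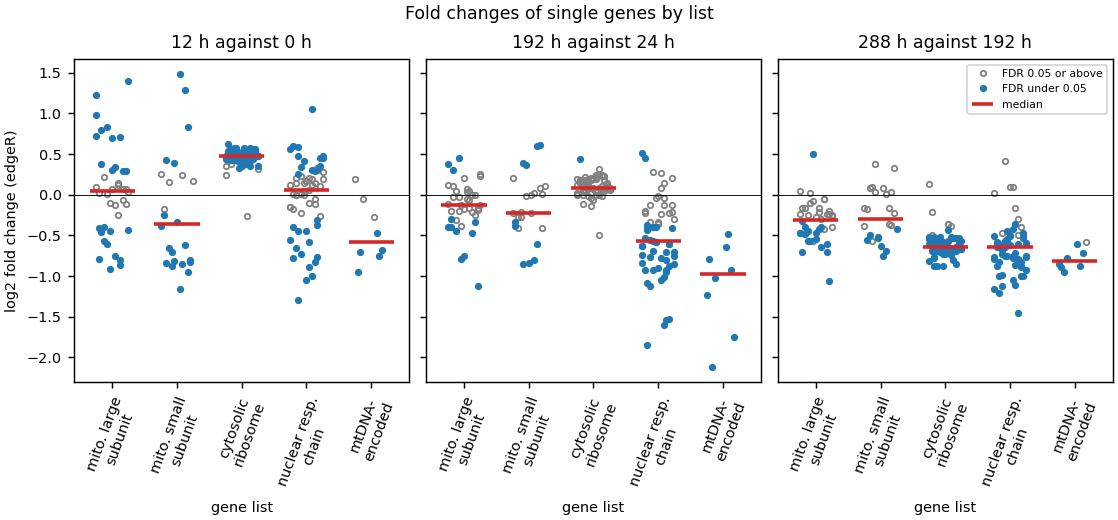
Log2 fold changes (edgeR, y axis) of single genes in 5 lists for 3 comparisons, with filled points for genes at an FDR under 0.05, open points for the others and a red bar for the median of each list. At 12 h against 0 h the members of both mitochondrial subunits spread from -1.15 to 1.49, while the cytosolic ribosomal protein genes lie close to their median of 0.48.

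Among the mitochondrial elongation factors, tufm-1, tufm-2 and tsfm-1 fell and gfm-1 rose by 12 h, and the summed level of the 4 went from 585 ± 62.3 CPM at -2 h to 196 ± 14.8 at 288 h. Of the 12 aminoacyl-tRNA synthetases that serve mitochondria, 6 rose and 2 fell by 12 h. They too split later, with 3 rising and 4 falling from 24 to 192 h. Of 8 genes of the mitochondrial unfolded protein response, 2 rose and 3 fell by 12 h, and 3 rose and 1 fell from 24 to 192 h. The summed level of those 8 was 868 ± 49.6 CPM at -2 h and 1986 ± 85.9 at 192 h.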

How the data were processed

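mRNA-seq of poly(A) RNA was deposited as raw counts, with 1 table per library and 5 summary entries, which were left out of totals (21.1 to 29.7% of reads in a library). The authors mapped reads with Bowtie to the WS210 genome and counted reads per gene with HTSeq to make these counts. Versions and strand setting are not given in the sources used here. Symbols were joined by sequence name to RefSeq and Ensembl names on WBcel235. No coordinates are given because the builds differ, and sequences were not used here.

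Genes with more than 1 CPM in at least 4 libraries (16987) were scaled with TMM and tested in edgeR 4.0.16 (R 4.3.3) in 1 fit of all 48 libraries, with time point as a factor. All time points were compared with the likelihood ratio test, as in the study, and 5 pairs (0 against -2 h, 12 against 0 h, 24 against 12 h, 192 against 24 h and 288 against 192 h) with the 2-sided quasi-likelihood F test. FDR was adjusted by Benjamini-Hochberg over all genes within each comparison, and each SE was obtained from the log2 fold change and the F statistic (|log2 fold change|/√F). Neighbouring comparisons share libraries. Per-kilobase levels used current exon lengths.

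The members and lists were chosen with earlier results of these data known. The mitochondrial DNA list was taken from the annotation once the data were seen, because its listed symbols matched none. Members named in a comparison were the 4 highest and the 4 lowest log2 fold changes of each subunit, the 3 highest and 3 lowest levels per length, and 10 members fixed by role. Of these, mrps-29 matched no symbol. Whether that gene has a row under another name was not checked, so the small-subunit members taken by the rule may not be complete.

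Libraries of the same replicate number were compared by the correlation of their deviations from the time point means. All 4 pairs exceeded 0.1 for 12 against 0 h (r of 0.269 to 0.383), 24 against 12 h (0.254 to 0.427) and 288 against 192 h (0.202 to 0.645), and the lowest r was 0.049 for 0 against -2 h and 0.0915 for 192 against 24 h. All replicates but 1 were sampled over time from a single culture. The fit with the replicate number as a block is therefore given where it changed a call. For 288 against 192 h only some of the members whose call changed are named. p-values otherwise measure the spread between replicates. Alternatives were other or no scaling factors, other filters, each replicate left out, a replicate block, the 2 libraries rich in ribosomal RNA left out, DESeq2 1.42.0, and the 2 time points alone.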

Additional observations from a re-analysis of the deposited data

Results flagged for a closer look

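Single libraries were compared with the other 3 of their time point in 144 groups of 4 (the 2 subunit sums and 10 members at 12 time points). A library stood apart in 13 of them. Chance gives about 5% for independent groups. These groups share libraries and the sums hold the checked members, so that rate does not gauge the number of flags. At -2 h, replicate 6, the library with 49.5% ribosomal RNA, was low in 3 measures: the small-subunit sum was 698.7 CPM against 849 to 878 in the others, mrps-11 was 50.9 CPM against 84.5 to 88.3, and mrpl-37 was 41.3 CPM against 59.1 to 60.7. Without the 2 libraries rich in ribosomal RNA, 1 member was called between -2 and 0 h.

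The other flags were spread over time points. The large-subunit sum was 1681 CPM in replicate 5 at 48 h, against 1819 to 1835. mrpl-55 was 39.4 CPM in replicate 8 at 6 h, against 36.3 to 36.8. mrps-5 was 187.9 CPM in replicate 5 at 96 h, against 222 to 229. mrps-28 was 9.93 CPM in replicate 5 at -2 h, against 13.3 to 14.0.

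mrpl-45 was 21.3 CPM in replicate 1 at 0 h, against 30.9 to 32.8, and 15.5 CPM in replicate 8 at 48 h, against 11.3 to 11.8. mrpl-37 was 217.5 CPM in replicate 1 at 192 h, against 241 to 243. mrps-26 was 35.9 CPM in replicate 6 at 48 h, against 24.9 to 26.5, and 13.5 CPM in replicate 1 at 192 h, against 19.2 to 20.0. mrpl-39 was 29.3 CPM in replicate 8 at 4 h, against 19.9 to 21.2. Causes were not tested.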

How the results depend on the processing

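Counts of members called are the results most open to the processing. Between -2 and 0 h, 3 calls became 5 with a mean CPM of at least 10 as the filter, 5 with upper-quartile factors, 6 with a replicate block, 1 without the 2 libraries rich in ribosomal RNA and 0 with the 2 time points alone, and 1 to 2 with a replicate left out. From 12 to 24 h, 7 calls became 3 without a filter and 4 without the 2 libraries rich in ribosomal RNA, and 4 to 6 with a replicate left out. From 24 to 192 h, 22 calls became 14 without a filter, and 14 to 17 with a replicate left out. From 192 to 288 h, 26 calls became 6 without scaling factors, and 17 to 21 with a replicate left out. With a replicate left out, the counts were 35 to 39 of 44 for 0 to 12 h and 57 to 59 of 60 over all time points. The shares of all genes called under these alternatives are not given here, so the changed counts cannot be set against the background. The causes were not tested. Without scaling factors the all-gene median between -2 and 0 h moved from 0.03 to 0.17. In the paired fit with the replicate block the counts were 45, 10 and 35 for 0 to 12 h, 12 to 24 h and 192 to 288 h, within 1.5 times of 44, 7 and 26. Over the named members, 1113 alternative values kept direction and side of the threshold, 90 fell below it, 26 passed it and none reversed while called. Of 80 subunit medians under alternatives, 18 moved by more than the SD over replicates. The large-subunit median for 0 to 12 h was -0.07 without scaling factors in place of 0.05. Depth limits the members with fewest reads: the lowest count in a tested member was 32, and mrpl-12 and mrps-16 could not be tested.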

Other observations

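Members with a bacterial counterpart and members specific to mitochondria were set side by side, a split made after values were seen. By 12 h, 12 of the 39 tested members with a bacterial counterpart rose and 17 fell (median log2 fold change -0.13), and 6 of the 25 specific to mitochondria rose and 9 fell (median 0.07). From 192 to 288 h, 14 of 39 and 11 of 25 fell. Over all genes tested, 22.2% rose and 23.3% fell by 12 h, and 17.4% fell from 192 to 288 h. No test was made.

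The gene next to each member on the chromosome was looked up in the current annotation, and the log2 fold changes of members and neighbours were correlated across pairs as a description. By 12 h, Pearson r was -0.09 over 28 pairs with an upstream neighbour on the same strand, 0.29 over 37 with a downstream one, 0.30 over 32 with an upstream neighbour on the opposite strand and 0.08 over 25 with a downstream one. The pairs share libraries. The members mrps-2 and mrpl-4 are neighbours on the same strand.

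mrps-2 was highest at 96 h (7.65 CPM) and mrpl-4 at 2 h (30.96 CPM). By 12 h mrpl-4 fell by 0.43 on the log2 scale, while mrps-2 was called in none of the 5 comparisons. In all, 11 of the 64 members (17.2%) were called in none of them, against 5098 (30%) of all 16987 genes tested. These members include mrpl-10, the uL10 protein of the stalk base, and mrpl-13, the uL13 protein.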
